A study of Mus musculus with 2 samples.

Results

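The cytotoxic-programmed γδ barcodes are single-cell barcodes from sorted fetal thymic γδ T cells that carry transcripts of 6 genes shared by cytotoxic T cells and natural killer (NK) cells. A barcode was selected when at least 500 genes were detected in it, when its unique molecular identifiers (UMIs) of Xcl1, Klrd1, Nkg7, Ccl5, Gzmb and Il2rb summed to at least 4, and when these came from at least 2 of the 6 genes. The rule selected 184 of 1158 barcodes with at least 500 genes. Of these, 157 lay in the TMREhi library (15.3% of 1025, 13.2–17.7) and 27 in the TMRElo library (20.3% of 133, 13.8–28.1). Intervals here and below are exact at 95% and cover counting error only, binomial for shares, Poisson for counts and conditional binomial for ratios of counts. Because UMIs of these 6 genes made the selection, their levels are a description and support nothing.

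The mice were wild-type C57BL/6, and the lobes of their fetal thymus were taken on embryonic day 15, given no treatment and held in culture for 2 days. The thymocytes were stained with TMRE, a dye that enters mitochondria in proportion to their membrane potential. CD24+ γδ T cells were sorted into a bright fraction (TMREhi) and a dim fraction (TMRElo), so both groups carry the same genotype, age, culture and CD24+ gate and differ in TMRE staining. A single library was prepared from each fraction with a 10x 5′ kit, and how many embryos were pooled is not given in the labels. With 1 library per fraction there is no replicate, no test between conditions was made, and cells are not replicates.

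γδ T cells leave the fetal thymus in waves that use particular γ chain V segments. In the mouse the earliest wave carries Vγ5 with Vδ1 and settles in the epidermis, the Vγ6 wave makes interleukin 17 (IL-17), and Vγ1 and Vγ4 cells follow. Some γδ cells take on a type 1 or cytotoxic programme in the thymus, with receptors and granule proteins that NK cells also use, and others take on an IL-17 programme. CD24 marks immature γδ thymocytes and is lost as they mature.

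The deposited matrices held 4350485 UMIs in 1202 TMREhi barcodes and 245048 UMIs in 196 TMRElo barcodes, and no barcode sequence occurred in both. The TMREhi barcodes with at least 500 genes had a median of 2031 UMIs and the TMRElo ones 1113. Barcodes of both libraries fell into those with under 15% of UMIs from ribosomal protein genes (low-ribosomal) and the rest (high-ribosomal). The selected TMREhi barcodes held 84 of the first kind, with a median of 1557.5 UMIs and 18.7% mitochondrial UMIs, and 73 of the second, with 7755 UMIs and 3.67%. The 73 high-ribosomal barcodes held 82.5% of the UMIs of the selected set, so summed levels are mostly theirs.

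Selection depends on depth, and the share selected was therefore also read at equal depth. Among barcodes of at least 2000 UMIs, thinned to 2000, 53 of 518 TMREhi barcodes (10.2%, 7.76–13.2) and 11 of 19 TMRElo barcodes (57.9%, 33.5–79.7) met the rule. Before thinning the same barcodes gave 86 (16.6%) and 15 (78.9%). The TMRElo share was higher than the TMREhi share both ways, on 19 TMRElo barcodes. The 19 are the deepest of 133, and any tie between depth and programme within that library was not tested.

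**Figure D1:**
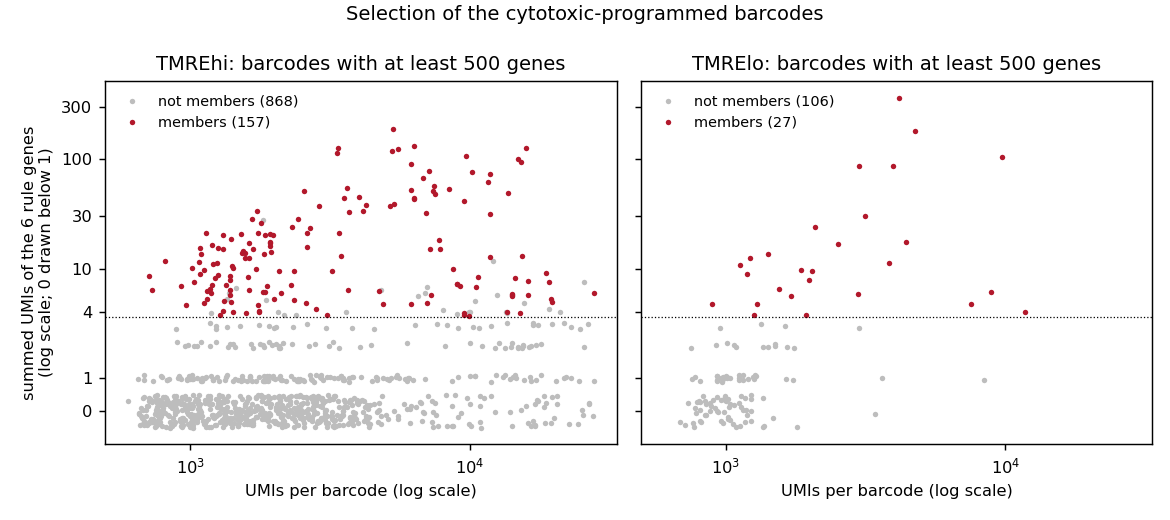
Summed UMIs of the 6 selecting genes (log axis, with 0 drawn below 1 and small vertical jitter) against UMIs per barcode (log axis) for every barcode with at least 500 genes, 1025 in TMREhi on the left and 133 in TMRElo on the right. Red points are the selected barcodes, 157 and 27. The dotted line lies under the limit of 4 UMIs, and grey points above it drew all their UMIs from 1 gene.

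Among the 6 selecting genes, Nkg7, a membrane protein of cytotoxic granules, was present in most TMREhi barcodes (129 of 157, 572 UMIs). Klrd1, which encodes CD94, the partner of the NKG2 receptors, had 883 UMIs in 113 barcodes. Il2rb, a chain of the interleukin 2 and 15 receptors, had 218 UMIs in 104 barcodes. The chemokine gene Xcl1 had 498 UMIs in 86 barcodes, and the chemokine gene Ccl5 had 1470 in 85, of which 177 lay in 1 barcode. Gzmb, which encodes the protease granzyme B, was the rarest, with 208 UMIs in 35 barcodes and 21.2% of them in 1. Selected barcodes held between 66.6% (Nkg7) and 98.6% (Gzmb) of all UMIs of each gene in TMREhi barcodes with at least 500 genes. In 165 TMREhi barcodes that carried Rag1 but no γ V segment (median 1188 UMIs), taken as cells that should lack the programme, between 0% (Il2rb) and 3.03% (Ccl5) had a UMI. The number of selecting genes present was 2 in 46 barcodes, 3 in 41, 4 in 27, 5 in 29 and all 6 in 14, and the summed UMIs ran from 4 through a median of 12 to 193.

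Each of the 157 TMREhi barcodes was paired with a barcode of the same library that held 0 UMIs of the 6 genes and had the nearest depth. The pairs had median depths of 2546 and 2497 UMIs, 1325 and 1384 genes, and 13.5% and 13.8% mitochondrial UMIs. They differed in make-up, since Rag1 or Rag2 was present in 3 selected and 35 paired barcodes, and 3 or more UMIs of the macrophage genes Lyz2, C1qa and C1qb in 0 and 3. Of 6049 genes with a mean of at least 20 counts per 1000000 UMIs (CPM), and leaving out the 6, 304 (5.03%) were at least 2-fold higher in the selected barcodes and 271 (4.48%) at least 2-fold lower. The median log2 ratio of all genes was -0.06. A gene that reached 20 CPM on average only through 1 of the sets had to differ, so list counts are also given for the 5243 genes at 20 CPM or more in both sets, of which 138 (2.63%) were at least 2-fold higher and 104 (1.98%) at least 2-fold lower. A stricter comparison, added after the data were seen, kept 150 selected barcodes with a V segment and no Rag1 or Rag2, and paired them within the ribosomal class. There 267 of 5912 genes (4.52%) were at least 2-fold higher and 197 (3.33%) at least 2-fold lower.

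The receptors and adaptors that NK cells use stood furthest above the paired barcodes. Of 22 listed genes 12 reached 20 CPM, and 11 of these were at least 2-fold higher and none 2-fold lower, with a median log2 ratio of 3.39 beside -0.06 for all genes. For 5 of the 12 (Klra5, Klrb1c, Klrc2, Cd244 and Slamf7) the level in paired barcodes was under 20 CPM, which fixes their direction. Of the 7 at 20 CPM or more in both sets, 6 were at least 2-fold higher, with a median of 2.43. Cd7, an immunoglobulin-family receptor of T and NK cells, had 1990 UMIs in 130 of 157 selected barcodes, at most 99 in a barcode, and 38 UMIs in 22 of 157 paired barcodes. That is 2464 against 48.5 CPM, or 50.8-fold (36.9–72.0), and 29.6-fold in the stricter comparison. Klra5, which encodes Ly49E, a lectin-like receptor known from fetal NK cells and epidermal γδ T cells, had 277 UMIs in 63 selected barcodes and 0 in the paired ones, at least 89.5-fold against a floor of 3 UMIs over the paired set. Klrb1c, which encodes NK1.1, had 86 UMIs in 48 barcodes against 0 (at least 27.8-fold). Klrc2, which encodes the CD94 partner NKG2C, had 82 UMIs in 34 barcodes against 0 (at least 26.5-fold). Members of the Klra and Klrc families are close copies of one another, so reads may have been divided among them.

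The signalling adaptors that such receptors use were also present in many selected barcodes. Fcer1g, the common chain of Fc receptors, had 520 UMIs in 98 selected barcodes and 76 in 7 paired ones. Tyrobp, which encodes the adaptor DAP12, had 479 UMIs in 70 selected barcodes and 64 in 3 paired ones. Macrophages also use both adaptors, and Lyz2 had 0 UMIs in the selected barcodes and 159 in the paired ones. The co-receptor genes Cd244 (108 UMIs in 57 barcodes against 1 UMI, interval 18.4–4173), Slamf7 (75 against 4, 18.2-fold, 6.81–68.4) and Cd160 (416 in 121 barcodes against 74 in 30, 5.45-fold, 4.25–7.08) were also higher. Genes of this kind share a chromosome region. In the NK gene complex, from Klrb1c to Klra1 (chr6:128778485-130386874, GRCm38), 7 of 11 tested genes were at least 2-fold higher and 0 lower, beside 5.03% of all genes. Klrb1c, Klrc2 and Klra5, already counted above, are among the 7. They had 0 UMIs in paired barcodes, so reaching 20 CPM fixed their direction.

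The 120 bases before the start site are shown for 2 receptors of that complex that had no UMI in paired barcodes, and for Gzmb as a selecting granule gene. They are from RefSeq on GRCm38.p6, read 5′ to 3′ on the minus strand, and capitals mark TGTGGT, the core of the motif of RUNX factors such as Runx3. The windows are chr6:129913225-129913344, chr6:128788642-128788761 and chr14:56262335-56262454.
Klra5: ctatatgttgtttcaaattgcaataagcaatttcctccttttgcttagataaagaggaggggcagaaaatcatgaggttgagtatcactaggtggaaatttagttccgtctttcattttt
Klrb1c: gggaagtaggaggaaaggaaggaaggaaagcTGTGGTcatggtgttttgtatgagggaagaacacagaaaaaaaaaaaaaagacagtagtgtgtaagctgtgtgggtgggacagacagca
Gzmb: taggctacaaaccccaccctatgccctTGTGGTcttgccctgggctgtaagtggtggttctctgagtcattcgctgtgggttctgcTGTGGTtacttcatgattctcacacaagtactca
Klrb1c held 1 match, which began 89 bases before the start, Gzmb held 2, at 93 and 34 bases, and Klra5 held 0 on either strand of the 250 bases before its start. TGTGGT on either strand lay in 4614 of 32851 such windows of all genes (14.0%), in 658 of 6099 of the tested genes (10.8%), in 55 of 304 windows of the genes at least 2-fold higher (18.1%) and in 30 of 292 of those at least 2-fold lower (10.3%). The T-box letters AGGTGT lay in 11.8% of all windows, 8.31% of those of tested genes, 6.25% of the higher and 10.96% of the lower. TTCNNNGAA, the letters bound by STAT factors, lay in 7.02%, 5.97%, 7.57% and 6.16%. A gene can have more than 1 window. The 304 windows of higher genes belong to 229 genes, and the 292 of lower genes to 213. A match is a description of the letters and not a bound site.

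**Figure D2:**
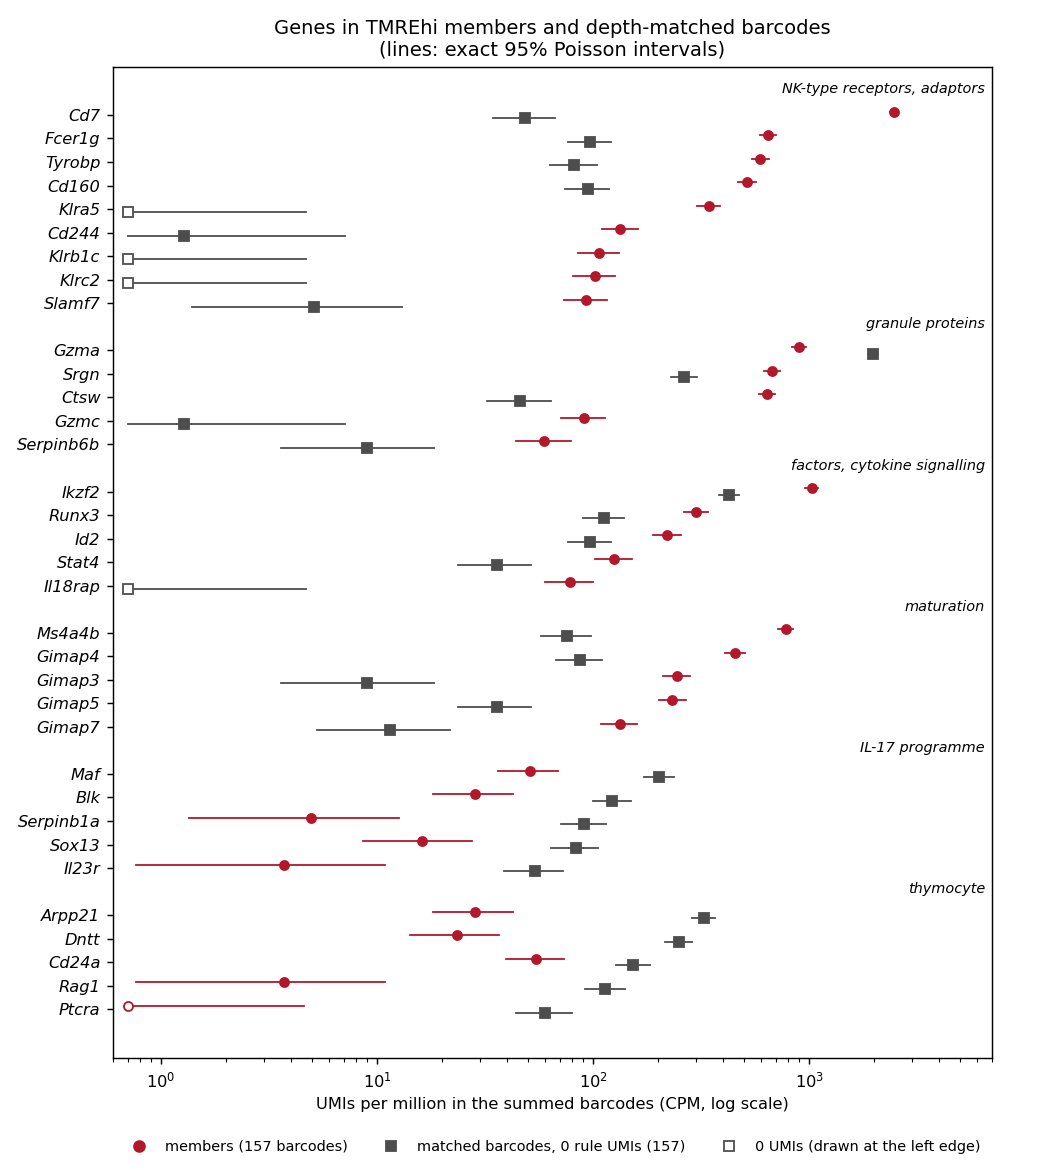
Summed levels of named genes (CPM, log axis) in the 157 selected TMREhi barcodes (red circles) and the 157 paired barcodes (grey squares), with exact 95% Poisson intervals as lines and open symbols at the left edge for 0 UMIs. NK-type receptors, granule proteins other than Gzma, factors and maturation genes lie to the right in the selected barcodes, and genes of the IL-17 programme and of thymocytes lie to the left.

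The other granule proteins did not move as a group in a single direction. Of 19 listed, 10 reached 20 CPM, 5 were at least 2-fold higher and 1 at least 2-fold lower (median log2 ratio 1.004). Of the 6 at 20 CPM or more in both sets, 2 were higher and 1 lower by this measure (median 0.34). Ctsw, which encodes cathepsin W, a protease of cytotoxic lymphocytes, had 514 UMIs in 128 selected barcodes and 36 in 25 paired ones (13.8-fold, 9.87–19.98). Gzmc, another granzyme gene, had 73 UMIs in 28 barcodes against 1 UMI in 1. Srgn, the proteoglycan that packs granules, had 543 UMIs in 112 barcodes against 206 in 72 (2.56-fold, 2.17–3.01). Serpinb6b, a protease inhibitor, was 6.65-fold higher (2.99–17.4), and 2.61-fold in the stricter comparison. Tnfsf10, which encodes the death ligand TRAIL, was 4.201-fold higher (2.21–8.65). Gzmc, Serpinb6b and Tnfsf10 were under 20 CPM in paired barcodes (1.28, 8.94 and 15.3), which fixes their direction. The 2 higher genes at 20 CPM or more in both sets were Ctsw and Srgn.

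Gzma, which encodes granzyme A, went the other way. It had 726 UMIs in 41 selected barcodes and 1544 in 70 paired ones, or 899 against 1972 CPM, 2.19-fold lower (2.01–2.40). The level was uneven, with up to 111 UMIs in a selected barcode and 126 in a paired one, so the groups overlapped fully. Among low-ribosomal barcodes compared with paired ones of the same class the sign turned, with a log2 ratio of 0.72. In that class 14 of 84 selected barcodes had a Gzma UMI, and 106 of their 209 UMIs lay in 1 barcode. Prf1, which encodes the pore protein perforin, had 5 UMIs in 4 selected barcodes and 0 in paired ones. Perforin transcripts were too few for a ratio at this depth, and with Gzma lower and Gzmb used for the selection, the granule genes give the name cytotoxic only partial support here.

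The genes of type 1 differentiation and cytokine response were higher in part. Of 26 listed, 19 reached 20 CPM, 6 were at least 2-fold higher and 0 lower, and the median of the 19 log2 ratios was 0.48 (4 and 0 of the 15 at 20 CPM or more in both sets). Il18rap, the accessory chain of the interleukin 18 receptor, had 63 UMIs in 43 selected barcodes and 0 in paired ones (at least 20.4-fold, but 62 against 6 UMIs or 9.59-fold in the stricter comparison). Stat4, the factor downstream of interleukin 12, had 101 UMIs in 69 barcodes against 28 in 25 (3.497-fold, 2.28–5.52), and its receptor chain Il12rb2 had 25 against 9. Il18rap and Il12rb2 were under 20 CPM in paired barcodes (0 and 11.5), which fixes their direction. The other chains of these 2 receptors, Il18r1 and Il12rb1, were among the 6 listed genes with a ratio below 1 (log2 ratios -0.57 and -0.63). Runx3, a factor of cytotoxic lineages, was 2.65-fold higher (2.07–3.43) with 241 UMIs in 109 barcodes against 88 in 51. Ikzf2, which encodes Helios, was present in 142 selected and 105 paired barcodes and 2.41-fold higher (2.12–2.75), and Id2, an inhibitor of E proteins, was 2.27-fold higher (1.73–3.01).

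The defining type 1 factor and cytokine were scarce. Tbx21, which encodes T-bet, had 13 UMIs in 12 selected barcodes and 0 in paired ones, at least 4.201-fold against the floor. Eomes, its relative in NK cells, had 3 UMIs in 1 barcode. Ifng had 0 UMIs in both sets. Zbtb16, which encodes PLZF, a factor of innate-like T cells, had 29 UMIs in 22 selected barcodes and 10 in 9 paired ones (2.81-fold, 1.33–6.47), and was named after its value was seen.

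Among genes of homing to and residence in epithelium, 11 of 16 reached 20 CPM (median log2 ratio 0.69). Of these 5 were at least 2-fold higher, beside 5.03% of all genes, and 0 lower. The 3 with a ratio below 1 were Cxcr6, Ccr9 and Itgb1 (log2 ratios -0.63, -0.54 and -0.27). Ccr10 had 0 UMIs in selected barcodes. Of the 9 at 20 CPM or more in both sets 3 were higher, beside 2.63% of all genes. Cxcr3 and S1pr1 were under 20 CPM in paired barcodes (3.83 and 15.3), which fixes their direction. Cxcr3, a chemokine receptor of type 1 cells, had 41 UMIs in 31 barcodes against 3 in 3 (13.2-fold, 4.23–66.9). S1pr1, the receptor that guides cells out of the thymus, had 56 UMIs in 42 barcodes against 12 in 10 (4.52-fold, 2.40–9.27). S1pr1 is also counted with the maturation genes below. It stood at 69.3 CPM in selected barcodes and at 61.3 CPM in barcodes with 1 selecting UMI, so it was not particular to the selected ones. Itgae, which encodes CD103, the integrin chain that binds E-cadherin, was 2.66-fold higher (1.83–3.94), and its partner Itgb7 2.24-fold (1.70–2.98), and they were 1.67-fold and 1.64-fold higher in the stricter comparison. Itga4, which pairs with Itgb7, was 1.61-fold higher (1.31–2.00). Ccr7, a receptor for lymphoid chemokines, was 2.36-fold higher (1.29–4.53), but its log2 ratio was -0.25 with at least 6 UMIs from at least 3 of the 6 genes required.

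The listed genes of T cell receptor signalling were split. Of 34 listed, 21 reached 20 CPM, 3 were at least 2-fold higher and 3 at least 2-fold lower, with a median log2 ratio of 0.33 (0.06 in the stricter comparison). The higher ones encode surface receptors of stimulated T cells, and all 3 were under 20 CPM in paired barcodes. Lag3 had 40 UMIs in 28 barcodes against 0 (at least 12.9-fold), Tnfrsf18, which encodes GITR, had 49 in 41 against 5 in 4 (9.4999-fold, 3.81–30.6), and Tnfrsf9, which encodes 4-1BB, had 74 in 32 against 8 in 7 (8.97-fold, 4.32–21.5). The lower ones were the thymocyte factor Myb (52 against 164 UMIs, 3.25-fold lower, 2.37–4.53), and the survival genes Bcl2a1b (8 against 35) and Bcl2l1 (9 against 24). Bcl2a1b and Bcl2l1 were under 20 CPM in selected barcodes (9.90 and 11.1). For these 2 and the 3 higher genes the direction was thereby fixed. Of the 14 genes at 20 CPM or more in both sets 0 were at least 2-fold higher and 1 lower, with a median of 0.38.

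Genes of maturation and egress were higher in the selected barcodes. Of 27 listed, 26 reached 20 CPM, 14 were at least 2-fold higher and 1 lower (median log2 ratio 1.11, and 0.79 in the stricter comparison, with 11 and 1). Of the 22 at 20 CPM or more in both sets 10 were higher and 1 lower, with a median of 0.77. The GIMAP genes, small GTPases needed for lymphocyte survival, led the list. In their cluster (chr6:48647234-48770851, GRCm38) 6 of 8 tested genes were at least 2-fold higher and 0 lower, beside 5.03% of all genes higher. Gimap3 and Gimap7 were under 20 CPM in paired barcodes (8.94 and 11.5), which fixes their direction. Gimap3 had 197 UMIs in 86 selected barcodes and 7 in 5 paired ones (27.3-fold, 13.0–68.7; 13.7-fold in the stricter comparison). Gimap7 was 11.5-fold higher (5.85–25.9), Gimap5 6.51-fold (4.36–10.1) and Gimap4 5.23-fold (4.03–6.88). Ms4a4b, a membrane protein of mature T cells, had 630 UMIs in 128 barcodes against 59 in 27 (10.4-fold, 7.92–13.8). Klf2, a factor that drives S1pr1, was 2.89-fold higher (2.05–4.12) with 137 UMIs against 46. Ly6c2 had 50 UMIs, all in 14 selected barcodes, and 0 in paired ones, which also fixes its direction.

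Cd24a, which encodes the CD24 on which the cells were sorted, had 44 UMIs in 17 selected barcodes and 120 in 42 paired ones, 2.81-fold lower (1.98–4.07). None of the 84 low-ribosomal selected barcodes had a UMI, and all 44 lay in the high-ribosomal ones. Of 20 listed genes of antigen presentation on MHC class I and of the interferon response 14 reached 20 CPM, with a median log2 ratio of 0.31. Of these 10 had a ratio above 1 and 2 were at least 2-fold higher, Tapbp, a chaperone of MHC class I (2.20-fold, 1.56–3.14), and the interferon-induced gene Ifi27 (95 against 45 UMIs). The class I heavy chain genes H2-D1 and H2-K1 were 1.79-fold (1.56–2.06) and 1.77-fold (1.54–2.03) higher.

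The IL-17 programme was lower. Of 32 listed genes 23 reached 20 CPM, 12 were at least 2-fold lower and 1 higher, with a median log2 ratio of -1.31 and of -1.63 in the stricter comparison (15 lower and 0 higher of 24). Of the 17 genes at 20 CPM or more in both sets 7 were at least 2-fold lower and 0 higher, with a median of -0.85. Il23r, the interleukin 23 receptor gene, had 3 UMIs against 42 (14.4-fold lower, 4.62–72.8). Maf had 41 UMIs in 23 selected and 158 in 58 paired barcodes (3.98-fold lower, 2.80–5.75; 6.12-fold in the stricter comparison). Sox13, another factor of this lineage, was 5.16-fold lower (2.82–10.2), and the kinase gene Blk 4.31-fold lower (2.71–7.11). Serpinb1a, a protease inhibitor of IL-17-type γδ cells, had 4 UMIs against 71 (18.3-fold lower, 6.85–69.0), and Tmem176b, an ion channel gene, was 6.38-fold lower (4.05–10.5). Il23r, Serpinb1a and Sox13 (3.71, 4.95 and 16.1 CPM) were among 5 genes of the list under 20 CPM in selected barcodes, which fixes their direction.

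**Figure D3:**
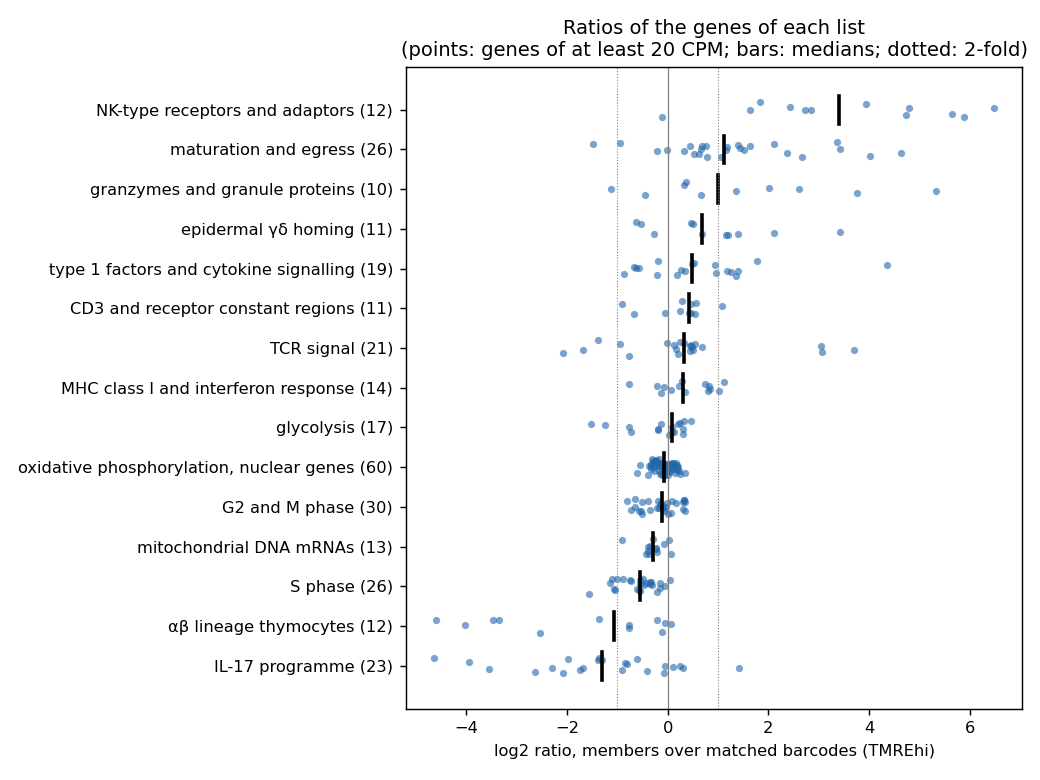
Log2 ratios (selected over paired TMREhi barcodes, 1 CPM added) of the genes of 15 lists that reached 20 CPM, with their number in brackets, a point per gene and a black bar at the median. The solid line is no difference and the dotted lines are 2-fold. Among the lists drawn, which leave out those of other cell types, NK-type receptors lie furthest right, with a median of 3.39, and the IL-17 programme furthest left, with a median of -1.31.

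Genes of αβ lineage thymocytes were lower, with 6 of 12 tested (16 listed) at least 2-fold lower, none 2-fold higher, and a median of -1.07 on the log2 scale (3 of the 9 at 20 CPM or more in both sets, median -0.77). Ptcra, the pre-T cell receptor chain, had 0 UMIs in selected and 47 UMIs in 15 paired barcodes (at least 16.2-fold lower). The co-receptor gene Cd4 had 1 UMI against 25. Rag1, a recombinase subunit, had 3 UMIs against 89, and Dntt, which encodes the terminal transferase of V(D)J joints, had 19 against 195, with 78.9% of the 19 in 1 barcode. Ptcra and Rag1 were under 20 CPM in selected barcodes (0 and 3.71), which fixes their direction. Arpp21, an RNA-binding protein gene of thymocytes, had 23 against 254 (11.4-fold lower, 7.43–18.3). The paired barcodes held 35 with Rag1 or Rag2, and in the stricter comparison, which leaves such barcodes out, requires a V segment and matches the class, the median was -0.13, Ptcra was 0 against 5 UMIs and Arpp21 was 5.62-fold lower. Of 2 T cell lineage factors named after their values were seen, Bcl11b had 120 against 316 UMIs (2.72-fold lower, 2.19–3.38) and Tcf7 248 against 369 (1.53-fold lower, 1.30–1.81).

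The selected barcodes carried the T cell receptor complex. At least 1 UMI of Cd3d, Cd3e, Cd3g or Cd247, which encode the CD3 chains, was present in 154 of 157 (98.1%, 94.5–99.6) and in 146 of the paired barcodes (93.0%, 87.8–96.5). The median was 12 CD3 UMIs per selected barcode against 5, and the summed level was 3078 against 2420.3 CPM (1.27-fold, 1.20–1.35). The ratio was 1.09 (1.03–1.15) in the stricter comparison, 1.86 (1.61–2.16) among low-ribosomal and 1.09 (1.02–1.17) among high-ribosomal barcodes. The chains differed. Cd3d (904 against 605 UMIs) was 1.45-fold higher (1.31–1.61) and Cd3g (831 against 582) 1.38-fold, whereas Cd247, which encodes the ζ chain, was 1.59-fold lower (1.28–1.97) with 147 against 226 UMIs. Cd3e had 604 against 482 UMIs, but its sign turned in 3 alternatives. Lat, the adaptor phosphorylated after receptor engagement, was 1.87-fold lower (1.58–2.22).

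A γ or δ V segment was present in 153 of 157 selected barcodes (97.5%, 93.6–99.3) and in 120 paired ones (76.4%, 69.0–82.8), and a γδ constant region in 148 and 111. No selected barcode lacked both CD3 and V segment UMIs, against 7 paired ones. Tcrg-C4, a γ constant region, was 2.11-fold higher (1.67–2.68), and Trdc, the δ constant region, 1.38-fold (1.16–1.64). Trbv segments of the β chain occurred in 60 selected and 71 paired barcodes, and a β V transcript can be present in γδ T cells.

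Markers of NK cells and other innate lymphocytes were followed because those cells share the selecting genes. Of 13 listed, 4 reached 20 CPM and 3 of these were at least 2-fold higher, beside 5.03% of all genes. They were Klrb1c, Kit (162 UMIs in 73 barcodes against 9 in 8, 17.4-fold, 8.97–38.8) and Fcgr3 (41 in 31 against 17 in 2). Klrb1c (0) and Kit (11.5) were under 20 CPM in paired barcodes, which fixes their direction. Of the 2 genes at 20 CPM or more in both sets 1 was higher by this measure (median log2 ratio 0.37), beside 2.63% of all genes. The NK cell genes Klra4, Klra8 and Cd300a and the innate lymphocyte genes Il1rl1 and Il22 were at 0 in selected barcodes. Ncr1, which encodes NKp46, had 13 UMIs in 6 barcodes, 46.2% of them in 1, and Ncr1 or Eomes was present in 7 of 157 selected barcodes and in 0 paired ones. The integrin gene Itga2, which encodes the NK marker CD49b, had 17 UMIs in 15 barcodes. Of 18 myeloid and dendritic markers 13 were at 0 in selected barcodes, and the list summed to 112 UMIs against 556. B cell markers summed to 36 against 25 UMIs, erythroid and mast cell markers to 75 against 58, and thymic stroma markers to 98 against 70.

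The γ chain V segments that led the barcodes differed from those of the paired ones. Stretches of 90 coding bases that end at the conserved cysteine codon are shown because the Vγ1-type segments can hardly be told apart. They are from GENCODE vM21 on GRCm38, 5′ to 3′, and capitals mark bases that differ from Trgv2 at the same place, with no gaps. The windows are chr13:19336587-19336676 (minus strand), chr13:19340351-19340440 (plus strand) and chr13:19192622-19192711 (plus strand).
Trgv2: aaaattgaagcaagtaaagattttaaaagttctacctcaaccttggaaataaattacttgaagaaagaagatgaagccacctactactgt
Tcrg-V1: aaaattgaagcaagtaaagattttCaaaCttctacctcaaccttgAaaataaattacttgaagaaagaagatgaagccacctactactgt
Tcrg-V5: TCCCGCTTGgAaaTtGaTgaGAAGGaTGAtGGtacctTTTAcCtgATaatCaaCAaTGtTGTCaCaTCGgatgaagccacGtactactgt
Tcrg-V1 differs from Trgv2 at 3 of the 90 bases (96.7% identity), and Tcrg-V3 has the same 90 bases as Tcrg-V1. The 3 were therefore counted as a Vγ1 family, and the division within it is uncertain. Tcrg-V5 differs from Trgv2 at 44 bases (51.1% identity), Tcrg-V6 at 44 and Tcrg-V4 at 22.

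Tcrg-V5 led 28 of the 147 selected barcodes with a γ V segment (19.0%, 13.0–26.3) and 1 of 102 paired ones (0.980%, up to 5.34). These 28 were most of the 39 barcodes led by Tcrg-V5 among all 698 TMREhi barcodes with a γ V segment (5.59%). The Vγ1 family led 74 (50.3%, 42.0–58.7) against 46 (45.1%, 35.2–55.3), with intervals that overlapped widely. Tcrg-V6 led 9 (6.12%, 2.84–11.3) against 27 (26.5%, 18.2–36.1), and Tcrg-V4 6 (4.08%) against 13 (12.7%). A tie for the lead was found in 27 and 15 barcodes. Tcrg-V7 led 3 and 0. In summed UMIs Tcrg-V5 had 174 in 49 selected barcodes and 14 in 9 paired ones (12.05-fold, 6.99–22.5), and Tcrg-V6 55 against 174.

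The δ chain segments differed as well. Trdv4, the Vδ1 segment of the epidermal and Vγ6 waves, led 45 of 112 selected (40.2%, 31.0–49.9) and 33 of 101 paired barcodes (32.7%, 23.7–42.7). Segments of the Trav15 family, the Vδ6 segments, led 34 (30.4%, 22.02–39.8) against 11 (10.9%, 5.56–18.7), and Trdv2-2 led 13 (11.6%, 6.33–19.0) against 26 (25.7%, 17.6–35.4). The pairs of leading segments were uneven, and that of Tcrg-V5 was the pair of the epidermal wave. Of the 28 barcodes led by Tcrg-V5, 24 were also led by Trdv4 and the other 4 had no δ segment. Of the 74 led by the Vγ1 family, 22 were led by the Trav15 family, 10 by Trdv5, 9 by Trdv2-2 and 7 by Trdv4, and 21 had no δ segment.

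V segment use went with ribosomal class among the selected barcodes. Tcrg-V5 led 22 of 76 low-ribosomal ones (28.9%, 19.1–40.5) and 6 of 71 high-ribosomal ones (8.45%, 3.16–17.5). The Vγ1 family led 23 (30.3%, 20.2–41.9) and 51 (71.8%, 59.9–81.9). In both classes Tcrg-V5 was rarer in paired barcodes, with 1 of 47 and 0 of 55. The low-ribosomal selected barcodes also had more mitochondrial UMIs (median 18.7% against 3.67%), and with at most 10% mitochondrial UMIs the share led by Tcrg-V5 was 7.35%. The part of RNA quality in these shares was not tested.

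**Figure D4:**
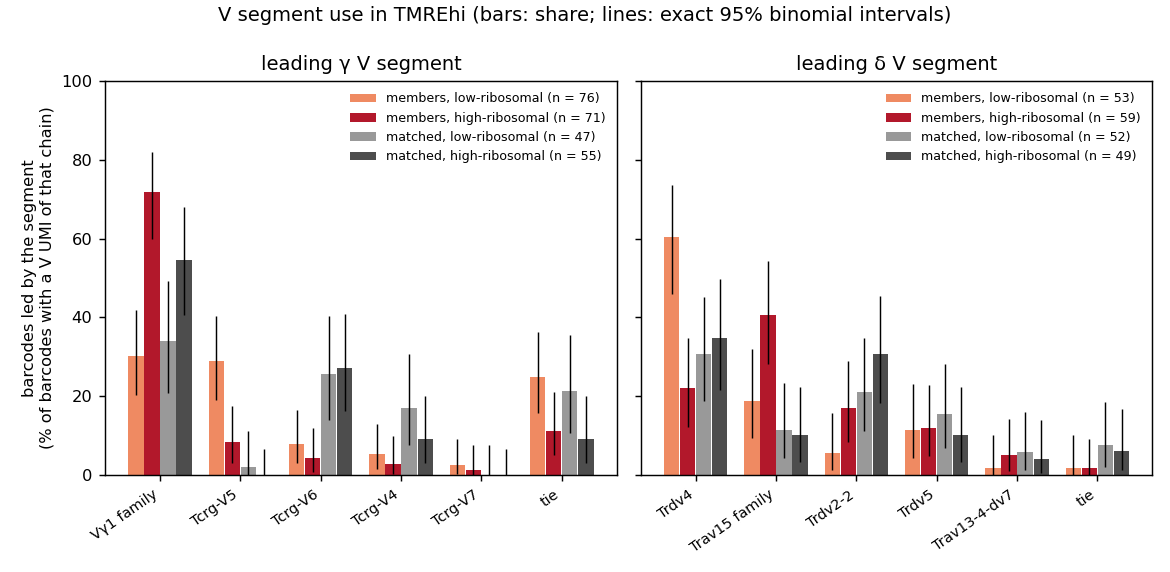
Share of barcodes led by each γ (left) and δ (right) V segment, in percent of TMREhi barcodes with a V segment of that chain, for selected (orange and red) and paired (greys) barcodes of each ribosomal class, with exact 95% binomial intervals. Tcrg-V5 reaches 28.9% in low-ribosomal selected barcodes, and the Vγ1 family 71.8% in high-ribosomal ones.

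Within the low-ribosomal selected barcodes, the 22 led by Tcrg-V5 (median 1393 UMIs) could be set beside the 23 led by the Vγ1 family (1750 UMIs). Of 12 NK-type genes with at least 10 UMIs in the pair of groups, 5 were higher with Tcrg-V5 by intervals clear of 1 (Klra5, Klrc2, Cd7, Slamf7 and Tyrobp), 0 were higher with the Vγ1 family, and for 7 the interval held 1. Among the 5, Tyrobp was at 64 against 16 UMIs (4.78-fold, 2.73–8.86), Klrc2 at 28 against 8 (4.18-fold, 1.86–10.6) and Klra5 at 44 against 16 (3.29-fold, 1.82–6.24). Itga1, which encodes the collagen-binding integrin chain CD49a, had 39 against 9 (5.18-fold, 2.47–12.2) and Stat4 27 against 10 (3.23-fold, 1.51–7.47). Those led by the Vγ1 family held more Il7r, the interleukin 7 receptor chain (40 against 11 UMIs, 3.04-fold, 1.53–6.57), Tnfrsf9 (19 against 1) and S1pr1 (10 against 0). The 19 Tnfrsf9 UMIs lay in 5 of the 23 barcodes, 10 of them in 1. Of the selecting genes Gzmb (26 against 8 UMIs, 3.89-fold, 1.71–9.93), Klrd1 (1.79-fold, 1.35–2.40) and Ccl5 (1.73-fold, 1.14–2.66) were higher with Tcrg-V5. Gzmb was present in 6 of 22 against 4 of 23 barcodes, and 15 of its 26 UMIs lay in 1. Il2rb was lower with Tcrg-V5 (16 against 40 UMIs, a ratio of 0.478, 0.25–0.873). The intervals of Xcl1 (76 against 83 UMIs, 0.791–1.51) and Nkg7 (0.829–2.39) held 1.

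Levels of several genes differed with the number of selecting UMIs. Cd7 stood at 48.5 CPM in the paired barcodes, 80.7 in the 144 barcodes with 1 selecting UMI, 142 in the 82 with 2 to 3, 545 in the 67 selected with 4 to 9, 3483 in the 51 with 10 to 29, and 4728 in the 39 with 30 or more. Cd7 was present in all 39 of the last. Over the same 3 selected groups Klra5 stood at 78.3, 484 and 655 CPM and Cd24a at 106, 14.5 and 0 CPM. Others did not keep that order, since Ctsw stood at 270.2, 1250.2 and 856 CPM, Ms4a4b at 682, 1257 and 681 and Kit at 126, 469.7 and 172, highest in the middle group. Tyrobp stood at 81.7 CPM in paired barcodes, 4.49 with 1 selecting UMI, 3.27 with 2 to 3, and 42.9, 838 and 1266 in the selected groups. S1pr1 stood at 15.3 CPM in paired barcodes and at 31.7 in all 615 with 0 selecting UMIs. It stood at 61.3 with 1 selecting UMI, 58.8 with 2 to 3, and 80.8, 86.7 and 43.9 in the selected groups. At the edge of the rule, Cd7 stood at 698 CPM in the 17 barcodes with 3 UMIs from at least 2 genes, at 97.5 in the 27 with at least 4 UMIs from 1 gene, and at 247 in the 13 with 4 UMIs from at least 2 genes.

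**Figure D5:**
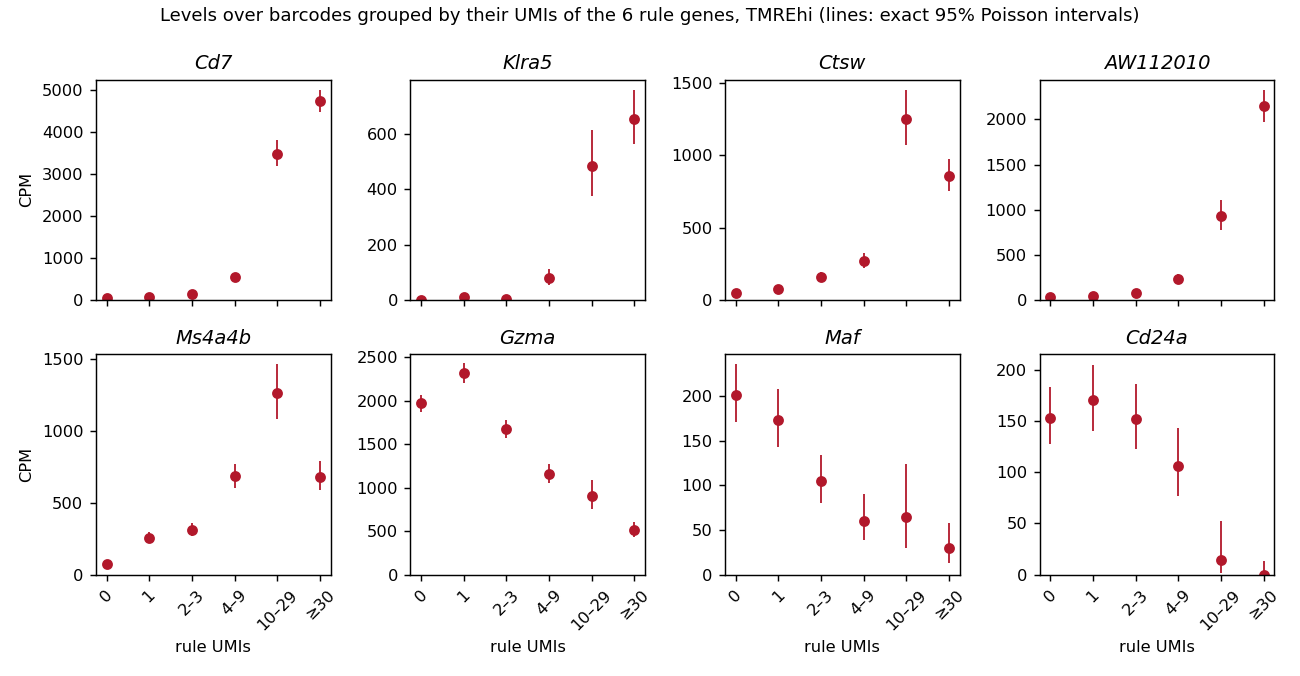
Levels (CPM, linear axes that start at 0 and differ between panels) of 8 genes in TMREhi barcodes grouped by their UMIs of the 6 selecting genes, with exact 95% Poisson intervals. The group at 0 is the 157 paired barcodes, and the last 3 groups are the selected ones. Cd7, Klra5 and AW112010 are highest at 30 or more, while Gzma, Maf and Cd24a are lowest there.

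Among the high-ribosomal selected barcodes the 27 with 4 to 9 selecting UMIs were the deepest (median 10692 UMIs) and held fewer of the NK-type transcripts. NK-type receptors and adaptors other than Cd7 summed to 3.35 UMIs per 10000 in these 27 (2.76–4.03) and to 55.97 in the 34 with 30 or more (53.1–58.9), against 3.83 (3.58–4.097) in the 219 high-ribosomal barcodes that were not selected. The barcode medians were 2.84, 54.6 and 2.82, and the highest value among the 219 was 110. Cd7 was present in 11 of these 27, at 1.29 UMIs per 10000, against 0.611 in the 219. Ctsw (1.196 against 0.505) and Ms4a4b (4.84 against 1.14) stood above those 219 barcodes in the 27. The 34 with 30 or more selecting UMIs (median 6567.5 UMIs) had Cd7 in all 34, at 45.4 per 10000. Gzma went the other way, at 13.1 per 10000 in the 27 and 2.68 in the 34. G2 and M phase transcripts stood at 93.8 per 10000 in the 27 (barcode median 27.2) and at 35.9 in the 34 (barcode median 7.48), and at 81.3 in the barcodes not selected. A fixed limit of 4 UMIs is reached more easily in a deep barcode, and requiring selecting UMIs of at least 0.2% of all UMIs left 124 of the 157, with 498 genes at least 2-fold higher and 783 at least 2-fold lower.

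Over all selected barcodes, S phase transcripts were lower than in the paired ones. Of 26 S phase genes 25 had a ratio below 1 and 6 (23.1%, beside 4.48% of all genes) were at least 2-fold lower, with a median log2 ratio of -0.55 (-0.35 with 1 at least 2-fold lower in the stricter comparison). Uhrf1, which keeps DNA methylation at replication, was 2.96-fold lower (2.21–4.02), Cdc6, a replication licensing factor, 2.27-fold lower (1.31–4.06), and Rrm2, a ribonucleotide reductase subunit, 2.17-fold lower (1.68–2.81). None of 30 G2 and M phase genes, of 60 nuclear genes of oxidative phosphorylation and of 13 mitochondrial mRNAs was past 2-fold, with medians of -0.12, -0.07 and -0.28. The largest ratio among the last belonged to mt-Nd6, a subunit of complex I (1.86-fold lower, 1.55–2.25). Of 17 glycolysis genes tested 2 were at least 2-fold lower (Ldhb, 17 against 49 UMIs, and Slc16a1, 16 against 38), or 11.8% beside 4.48% of all genes. Their median log2 ratio was 0.08, and 10 of the 17 had a ratio above 1. Slc16a1 was under 20 CPM in selected barcodes (19.8), which fixes its direction. Of the 16 at 20 CPM or more in both sets 1 was at least 2-fold lower.

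Outside the lists, the genes with the largest ratios were of mixed kinds. Itga1 had 84 UMIs in 41 selected barcodes and 0 in paired ones (at least 27.1-fold), and Car2, which encodes a carbonic anhydrase, 130 in 44 against 1. AW112010, an interferon-inducible transcript, had 807 UMIs in 113 barcodes against 26 in 17 (30.1-fold, 20.4–46.3). The Rac regulator gene Chn2 (10.5-fold, 5.81–20.8), the tetraspanin gene Cd9 (6.44-fold, 3.65–12.2), the kinase gene Prkch (4.19-fold, 2.96–6.07), the NK receptor gene Cd96 (4.11-fold, 2.86–6.06) and the phosphatase gene Ptpn22 (3.63-fold, 2.35–5.77) followed. Between them lay Ipcef1 (6.26-fold, 4.32–9.32), Shisa5 (4.32-fold, 3.48–5.41), Epsti1 (4.24-fold, 3.06–6.01) and Itm2c (4.09-fold, 2.42–7.27). Among the genes with the lowest ratios were the selenoprotein gene Selenop (20 against 152 UMIs), the creatine kinase gene Ckb (5.16-fold lower, 3.47–7.91) and the polyamine enzyme gene Odc1 (3.29-fold lower, 2.11–5.27). Ano6, Ccnb1ip1, Endou, Edem1, Fabp5, Capg and Desi1 were between 3.74-fold (Desi1) and 5.115-fold (Ano6) lower. The thymocyte genes Satb1 and Notch1 were 4.59-fold (3.63–5.87) and 4.38-fold (3.03–6.49) lower, and 2.09-fold and 2.63-fold in the stricter comparison.

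The 27 TMRElo barcodes also carried Cd7, Ctsw, Cd160 and Klra5. Their selecting UMIs had a median of 10 and a maximum of 359, with 475 UMIs of Xcl1, of which 279 (58.7%) lay in 1 barcode, and 86 of Gzmb, of which 64 (74.4%) lay in 1. Cd7 had 287 UMIs in 24 of 27 barcodes, Ctsw 80 in 23, Cd160 69 in 19 and Klra5 25 in 8. CD3 was present in 26 of 27, a V segment in 25, a γδ constant region in all 27, and Ncr1 or Eomes in 3. Il23r, Sox13, Blk, Rag1 and Ptcra were at 0. The Vγ1 family led 14 of 23 (60.9%), Tcrg-V4 3, Tcrg-V5 1 and Tcrg-V7 1. The TMRElo barcodes with 0 selecting UMIs were shallower (paired medians of 2089 and 1172 UMIs, with 15 and 26 of 27 low-ribosomal), and 21.1% of 6376 tested genes were at least 2-fold higher and 34.1% at least 2-fold lower. Values of that pairing are therefore not read as differences.

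Selected barcodes of the same ribosomal class were then set side by side between the fractions, 1 library each. Klrd1 stood at 2821 CPM in the 84 low-ribosomal TMREhi and 2055 in the 15 low-ribosomal TMRElo barcodes. Gzma had 209 UMIs against 1 there (38.8-fold, 6.89–1541) and 517 against 3 in the high-ribosomal class (17.1-fold, 5.81–83.0). In the low-ribosomal class Gzma was present in 14 of 84 TMREhi and 1 of 15 TMRElo barcodes. There 106 of the 209 TMREhi UMIs lay in 1 barcode. Summed Xcl1, a selecting gene, was 2.45-fold (1.90–3.13) higher in TMRElo in the low-ribosomal class, where 56 of the 95 TMRElo UMIs lay in 1 barcode and fewer barcodes had a UMI (6 of 15 against 52 of 84). In the high-ribosomal class it was 13.3-fold higher with 279 of 380 UMIs in 1 barcode. Tnfrsf9 was 3.34-fold (1.75–6.22) and 5.84-fold (3.46–9.67) higher in TMRElo, but its TMRElo UMIs lay in 4 of 15 and in 2 of 12 barcodes, against 10 of 84 and 22 of 73 in TMREhi. Cd8a had 15 and 8 TMRElo UMIs, also in 4 of 15 and 2 of 12. The chemokine gene Ccl4 had 29 UMIs in 2 of the 12 high-ribosomal TMRElo barcodes, 27 of them in 1, and 0 in the 73 of TMREhi. Such sums rest on a few barcodes. These are differences between 2 libraries, and fraction and library cannot be told apart.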

How the data were processed

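The gene by barcode matrices of the TMREhi and TMRElo libraries hold UMI counts per gene as deposited by the authors, made with Cell Ranger 3.0.2 per the file headers, and mm10 per the submitters' processing notes. How cells were called, and with which annotation release, was not given in the sources used here. No value was normalized before deposit. The depth was 4350485 and 245048 UMIs.

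Barcodes with at least 500 genes were kept. Selected barcodes were paired without replacement, deepest first, with the barcode of the same library that had 0 UMIs of the 6 genes and the nearest total outside them. UMIs were summed over each set and divided by the set's total (CPM). Log2 ratios have 1 CPM added, and genes needed a mean of 20 CPM. A barcode was given the V segment with most UMIs, and equal numbers were ties. Scrublet called 6 of 1202 TMREhi (0.499%) and 8 of 196 TMRElo barcodes (4.08%) as doublets, with 1 selected in each. They were kept, and left out as an alternative. With 1 library per fraction no test was made. The script was tested on simulated counts. Scrublet came from scanpy 1.11.5, intervals from scipy 1.17.1, sums from numpy 2.4.6 and tables from pandas 2.3.3 (Python 3.11.15).

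The barcodes, gene lists and rules were chosen with earlier results of these data known. Named genes are the 6, up to 6 of each effector, homing, receptor, lineage, maturation and MHC list and up to 3 of each cell cycle and metabolic list by the size of the log2 ratio, the 12 highest and 12 lowest outside the lists that reached a mean of 50 CPM, a UMI in at least 20% of barcodes and an interval clear of 1, and Tbx21, Ifng, Eomes, Cd24a, Rag1, Maf and Sox13. A gene that the rule also names is not reported here. Others, among them Cd160, Fcer1g, Tyrobp, Kit, Ncr1, Prf1, Itga2, Fcgr3, Zbtb16, Klf2, Cd8a, Ccl4 and Il7r, were chosen after their values were seen. Of 31053 gene identifiers, 30934 were in GENCODE vM21.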

Additional observations from a re-analysis of the deposited data

Results flagged for a closer look

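For 7 genes the summed level in selected barcodes lay on opposite sides of that in paired barcodes in the 2 libraries. None of these differences was tested, and the TMRElo pairs were unequal in depth and ribosomal class. Runx3 had a log2 ratio of 1.40 in TMREhi and -1.16 in TMRElo (36 UMIs in selected and 30 in paired TMRElo barcodes). Ikzf2 had 1.27 and -0.70 (124 and 75 UMIs), S1pr1 2.11 and -3.04 (11 and 34), Ms4a4b 3.35 and -1.12 (79 and 64), Itga4 0.69 and -1.65 (48 and 56) and Ipcef1 2.62 and -1.15 (23 and 19). Rrm2 had -1.11 and 7.03 (12 and 0 UMIs), the latter from a set at 0 and so no measure of size.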

How the results depend on the processing

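No paired analysis was possible because each fraction has 1 library, and for the same reason leaving out a replicate was not possible. Of 170 values that answer a comparison, 121 stayed within 1.5-fold (counts and medians) or within the counting interval (ratios and shares; for medians, also within the median bounds of their genes' intervals). The values that moved are given by alternative, with medians on the log2 scale.

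Requiring 6 UMIs from 3 of the genes left 98 TMREhi and 16 TMRElo barcodes and gave 466 genes at least 2-fold higher and 676 lower, with medians of 1.64 for granule proteins and -1.89 for the IL-17 programme, and -0.25 for Ccr7. The 71 TMREhi and 13 TMRElo barcodes of at most 10% mitochondrial UMIs gave 0.16 for granule proteins, 1.88 for NK-type receptors, -0.71 for the IL-17 programme, a CD3 ratio of 1.07, a Tcrg-V5 share of 7.35% and -0.092 for Cd3e. Requiring a V segment gave 5.51 for NK-type receptors and a CD3 ratio of 1.17. A mean over barcodes gave 650 higher and 741 lower genes, 4.03 for NK-type receptors, -2.13 for the IL-17 programme and a CD3 ratio of 1.515. With 2 paired barcodes each the CD3 ratio was 1.35. A limit of 100 CPM gave 60 and 36 genes, and medians of 0.37 for granule proteins, 2.72 for NK-type receptors and 0.96 for type 1 genes, from fewer genes. No limit gave 1891 and 2384. Adding 10 CPM gave 2.74 for NK-type receptors, and scaling to all other UMIs gave 451 lower genes.

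The next alternatives were chosen after seeing the data. Selecting UMIs of at least 0.2% gave 498 and 783 genes, medians of 1.73 for granule proteins, 4.04 for NK-type receptors and -2.24 for the IL-17 programme, and -0.32 for Ccr7. Leaving out barcodes with macrophage transcripts gave 5.65 for NK-type receptors. The stricter comparison gave 5.36 for NK-type receptors, a CD3 ratio of 1.09 and -0.0061 for Cd3e. Where a set held 0 UMIs, a log2 ratio depends on the 1 CPM added. With such genes bounded by a floor of 3 UMIs, the NK-type median of the stricter comparison was 4.67. Bounded medians were not made for the other alternatives, so their NK-type medians are not read as larger effects. Low-ribosomal barcodes gave 1039 and 1329 genes, 5.64 for NK-type receptors, 1.07 for type 1 genes, -2.16 for the IL-17 programme, a CD3 ratio of 1.86, a Tcrg-V5 share of 28.9% and 0.72 for Gzma and 0.70 for Bcl2a1b. High-ribosomal barcodes gave 2.10 for NK-type receptors, a CD3 ratio of 1.09, a Tcrg-V5 share of 8.45% and -0.080 for Cd3e. The cause was not tested for any of these. Pairing low-ribosomal TMRElo barcodes closely in depth left 6. Of 103 named genes with an interval clear of 1, only Cd3e, Gzma, Ccr7 and Bcl2a1b changed sign in an alternative (7 of 1543 values). Low depth limits the TMRElo barcodes and all genes with few UMIs, and shares of barcodes with a UMI are not shares of cells that express the gene.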

Other observations

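Cell cycle transcripts were uneven among the high-ribosomal selected TMREhi barcodes, a comparison chosen after seeing the data. The 19 led by the Vγ1 family and the Trav15 family (median 7154 UMIs) held 24.1 UMIs of G2 and M phase genes per 10000 (21.7–26.7), with barcode values from 3.17 through a median of 12.5 to 90.1. The 32 led by the Vγ1 family with another or no δ segment (median 10239.5 UMIs) held 99.9 per 10000 (96.7–103), with barcode values from 4.07 through 39.15 to 227. The barcode values of the groups overlapped. S phase genes stood at 27.5 and 30.1 per 10000. Gzma had 20 UMIs in 4 of the 19 and 381 in 18 of the 32, and Mki67, a marker of cycling cells, 11 UMIs in 7 and 194 in 17. Among high-ribosomal barcodes that were not selected, the 24 with both families held 85.2 per 10000 of G2 and M phase genes and the 104 others led by the Vγ1 family 91.2.

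Between classes of selected TMREhi barcodes, Klrd1 was 3.88-fold, Xcl1 3.41-fold and Cd7 2.55-fold (2.32–2.80) higher in the low-ribosomal one, and Ccl5 was 1.94-fold higher in the high-ribosomal one. Klrd1, Xcl1 and Ccl5 are selecting genes, and the classes had medians of 1557.5 and 7755 UMIs. The fixed limit of 4 UMIs asks for a larger share of a shallow barcode, so their levels are a description only. The same limit chose the barcodes in which Cd7 was read. Itga1 had 69 UMIs in the low-ribosomal and 15 in the high-ribosomal barcodes, which hold 82.5% of the UMIs.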
